A study of Mus musculus with 36 samples.

Results

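Expression of the hypoxia-inducible factor system was followed through 10 genes, chosen by symbol: the oxygen-regulated subunits Hif1a and Epas1, the negative regulators Vhl, Egln1, Egln2 and Egln3, and the targets Vegfa, Bnip3, Ankrd37 and Adm. Each matched 1 of the 56980 gene identifiers in the deposited count table, and all 10 passed the filter on low counts that left 25601 genes for testing. The study measured polyA-enriched RNA in 36 mouse brain samples, from animals aged 37 to 45 days that were either Ndufs4 knockout (KO) or wild type (WT). The product of Ndufs4 is an accessory part of complex I of the respiratory chain, and mice without it are a model of Leigh-like mitochondrial disease. Animals of both genotypes received CP2, an inhibitor of complex I, or vehicle by gavage on 3 consecutive days, and brain was taken at the end of that course.

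The letter F or M in each sample title, together with genotype and treatment, gave 8 groups. Among F samples, both genotypes had 5 treated and 5 vehicle samples. Among M samples, both genotypes had 5 treated and 3 vehicle samples. All mice were gavaged and all were of the same age range, while the knockout allele, the background strain and the CP2 dose are not given in the sources used here. The tissue label is brain, and the design text names hippocampus and cortex, and how much of either a sample holds is unknown. Nothing in the labels says which samples share a litter or a preparation day, and the p-values below measure the spread between these samples.

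HIF transcription factors pair an oxygen-regulated alpha subunit, such as HIF-1α (Hif1a) or HIF-2α (Epas1), with a constitutive beta subunit (ARNT). When oxygen is present, the prolyl hydroxylases EGLN1, EGLN2 and EGLN3 mark the alpha subunits and the VHL ubiquitin ligase removes them, so most of this control acts on protein and does not show in the RNA of Hif1a or Epas1. Hydroxylation uses oxygen, and mitochondrial respiration is the main consumer of oxygen in a cell, which is why the system is of interest where complex I is missing or inhibited. In brain, astrocytes and neurons are sources of VEGF-A, which acts on receptors of the endothelium, and Epas1 is known as an endothelial gene.

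Promoter windows of 4 members are shown because they belong to the members with a difference between genotypes (Vegfa, Egln2, Hif1a) and to the target with the highest level (Bnip3). They are the 250 bases before an annotated transcription start, from RefSeq on GRCm38.p6, written on the gene's own strand. In the order shown, they lie on chromosomes 17, 7, 12 and 7. Capitals mark ACGTG, a form of the core of the hypoxia response element, or its reverse complement CACGT. The form GCGTG is not marked.
Vegfa, chr17.0:46032378-46032627, minus strand: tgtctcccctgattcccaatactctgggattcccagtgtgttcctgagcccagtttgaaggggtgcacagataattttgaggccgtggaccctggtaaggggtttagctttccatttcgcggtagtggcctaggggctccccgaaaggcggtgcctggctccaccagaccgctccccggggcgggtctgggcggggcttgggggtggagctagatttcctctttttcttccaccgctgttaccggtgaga
Egln2, chr7.0:27166803-27167052, minus strand: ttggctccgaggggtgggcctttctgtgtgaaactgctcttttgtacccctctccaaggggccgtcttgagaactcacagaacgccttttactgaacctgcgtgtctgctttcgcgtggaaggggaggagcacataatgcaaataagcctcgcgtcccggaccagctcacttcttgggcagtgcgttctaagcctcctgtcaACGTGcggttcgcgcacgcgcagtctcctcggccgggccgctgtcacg
Hif1a, chr12.0:73907617-73907866, plus strand: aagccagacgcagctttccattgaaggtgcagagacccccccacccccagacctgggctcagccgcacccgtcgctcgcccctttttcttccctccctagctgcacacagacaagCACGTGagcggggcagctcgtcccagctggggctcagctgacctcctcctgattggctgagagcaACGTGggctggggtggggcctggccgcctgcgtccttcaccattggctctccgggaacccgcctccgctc
Bnip3, chr7.0:138909507-138909756, minus strand: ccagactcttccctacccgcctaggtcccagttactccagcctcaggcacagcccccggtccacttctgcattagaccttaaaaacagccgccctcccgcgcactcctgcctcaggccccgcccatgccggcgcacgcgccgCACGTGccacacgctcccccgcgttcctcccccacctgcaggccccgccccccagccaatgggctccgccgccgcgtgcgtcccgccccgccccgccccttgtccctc
The table of windows matched 9 of the 10 members, Epas1 being the gene without an entry, and ACGTG on either strand lay in the windows of 7 of those 9, in Vegfa only in a second window that lies inside the gene and is not shown. Across all genes, 16.6% of 32851 windows and 18.5% of 27025 genes held it. Counting ACGTG or GCGTG, 8 of those 9 members had a window with a copy, against 41.5% of all genes. ACGTG also sits inside the palindrome CACGTG, which occurs in the Hif1a and Bnip3 windows. The Vegfa window printed here holds no ACGTG, which says only that these letters are not in this stretch. The Egln2 window printed here holds 1 copy of ACGTG and 3 of GCGTG.

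Sequencing gave between 46124548 and 88559920 gene counts per sample (median 54749000), so that the member with the fewest reads, Adm, still had at least 54 counts in every sample. Ndufs4 itself was lower in KO in all 4 genotype comparisons, with group means of 28.2 to 35.6 CPM (counts scaled to a common library size) in KO and 44.6 to 53.4 CPM in WT. The Xist level separated F samples (438.6 CPM or more) from M samples (at most 0.833 CPM), except that sample L291 of KO CP2 M had 47.3 CPM. L266, of the same group, was its highest sample for Vegfa and Bnip3, and results in that group are also given without both. Reads outside annotated genes, called the library share below, made up 5.09% to 13.2% of a library, with group means from 5.99% in WT vehicle F to 12.1% in KO vehicle M. No marker of neurons, astrocytes, endothelium or microglia was at 0 in all samples of a group. Because the samples are bulk tissue, fewer cells of a type and less RNA per cell cannot be told apart.

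The members spanned a wide range of levels when counts were divided by exon length. In CPM per kb of exon, averaged over the 36 samples, the order was Bnip3 (39.4), Epas1 (34.8), Egln2 (26.2), Egln1 (23.3), Vhl (17.6), Hif1a (16.1), Vegfa (13.3), Egln3 (3.45), Ankrd37 (1.95) and Adm (1.07). Egln1 was above Vhl, Vegfa above Egln3, and Egln3 above Ankrd37, in 36 of 36 samples. The closest neighbours were Vhl above Hif1a and Hif1a above Vegfa, each in 28 of 36 samples, so their order does not hold in every brain. Of the hydroxylases, Egln2 and Egln1 were thus far more abundant per length than Egln3, and of the targets Bnip3 far more than Adm.

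**Figure D1:**
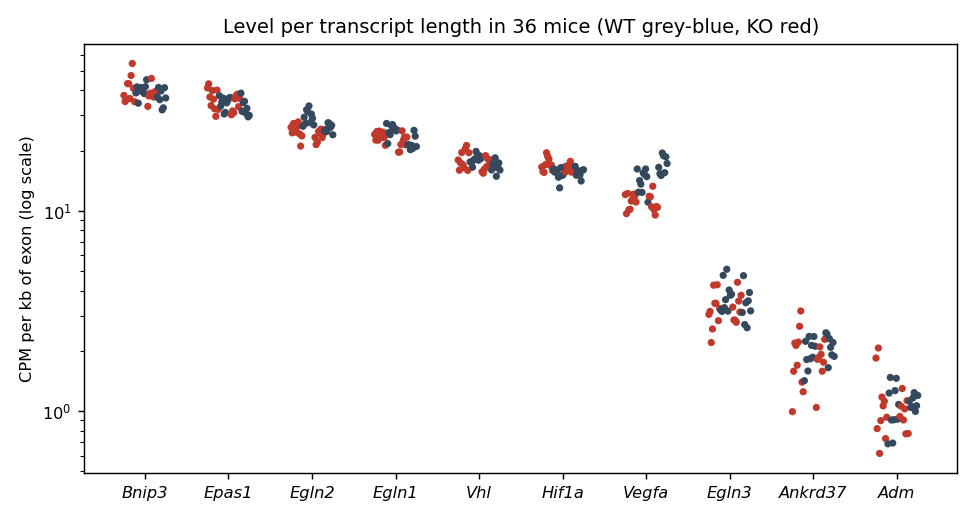
Level of each member per kb of exon (CPM per kb, log axis) in the 36 samples, 1 point per sample, WT in grey-blue and KO in red. Members run from Bnip3 (mean 39.4) to Adm (mean 1.07), and Vegfa is the member in which red points lie mostly below grey-blue ones.

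Vegfa (ENSMUSG00000023951), the ligand that drives growth and permeability of blood vessels, was lower in KO than in WT brain in both treatments. In the average of F and M, its level in KO was 0.758 of that in WT with vehicle and 0.69 of that in WT with CP2. Among the other members, Egln2 was lower in KO and Hif1a was higher in KO by smaller amounts, and the remaining 7 members passed the test in no comparison. For CP2 against vehicle, none of the 10 members was called in either genotype. All tests were made with edgeR's quasi-likelihood test over 25601 genes, and a member was called at an adjusted p under 0.05.

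With vehicle, the 5 KO F samples had 41.6, 43.5, 43.7, 51.7 and 52.4 CPM of Vegfa. The 5 WT F samples had 53.1, 53.2, 58.3, 60.8 and 69.4 CPM. All KO values lay below all WT values, although the gap between the highest KO and the lowest WT sample was small. The log2 fold change was -0.34 (SE 0.09, adjusted p = 0.0216). Vegfa was the 1 member of 10 called in this comparison, where 4.96% of all genes tested were called. The call was lost without L279, L282, L252 or L278, with the library share as a covariate, and when only these groups were fitted. The groups did not overlap for 1 member, again Vegfa, against 4.7% of all genes.

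The 3 KO M samples with vehicle had 44.9, 50.4 and 50.7 CPM of Vegfa. The 3 WT M samples had 64.4, 65.8 and 70.8 CPM. Every WT sample was thus well above every KO sample, but the log2 fold change of -0.46 (SE 0.12) had an adjusted p of 0.0521. No member was called in M with vehicle, in which 0.516% of all genes were called, and at an unadjusted p under 0.05 there were 2, against 12.2% of all genes. DESeq2 called 1, Vegfa (adjusted p = 0.0178). The groups did not overlap for 2 members, Vegfa and Egln2, against 20.9% of all genes. In the average of F and M the log2 fold change was -0.40 (SE 0.07, adjusted p = 0.000766), one of 2 members called lower, against 3.8% of all genes called lower and 6.67% called in either direction.

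With CP2, the 5 KO F samples had 47.5, 48.0, 49.0, 51.0 and 52.0 CPM of Vegfa. The 5 WT F samples had 47.4, 63.6, 65.3, 66.4 and 69.4 CPM. A single WT sample, L311, fell within the KO range, and the other WT samples were all above it. The log2 fold change was -0.34 (SE 0.09, adjusted p = 0.0394). It was 1 of 2 members called in F with CP2, against 2% of all genes. Leaving out 1 sample ended this call in 9 of 10 cases, the exception being L311, and the range of the fold change was -0.42 to -0.29.

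In M with CP2, the KO samples had 40.9, 43.5, 44.7, 45.1 and 56.9 CPM of Vegfa. The WT samples had 66.5, 73.9, 79.9, 80.8 and 83.5 CPM. The groups did not overlap, and this was the largest genotype difference of any member in any of the 4 groups of matched letter and treatment. The log2 fold change was -0.74 (SE 0.09, adjusted p = 2.02e-06), in a comparison with 9.99% of all genes called. Without both L266 and L291 it was -0.82 (adjusted p = 4.04e-06). Vegfa was also the 1 member without overlap there, against 11.1% of all genes.

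The average of F and M with CP2 was -0.54 on the log2 scale (SE 0.06, adjusted p = 7.17e-07). Of all 18 KO samples, the lowest, median and highest Vegfa levels were 40.9, 47.8 and 56.9 CPM, and of all 18 WT samples 47.4, 66.1 and 83.5 CPM. KO samples thus stayed in a narrow band whatever the treatment or letter, and 15 of 18 WT samples lay above every KO sample. The KO effect with CP2 was smaller in F than in M by 0.40 on the log2 scale (SE 0.13), a difference that did not pass the test (adjusted p = 0.111), in which 0.82% of genes were called. The difference between F and M with vehicle was 0.12 (SE 0.15, adjusted p = 0.919), in a test that called 0.102% of genes.

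**Figure D2:**
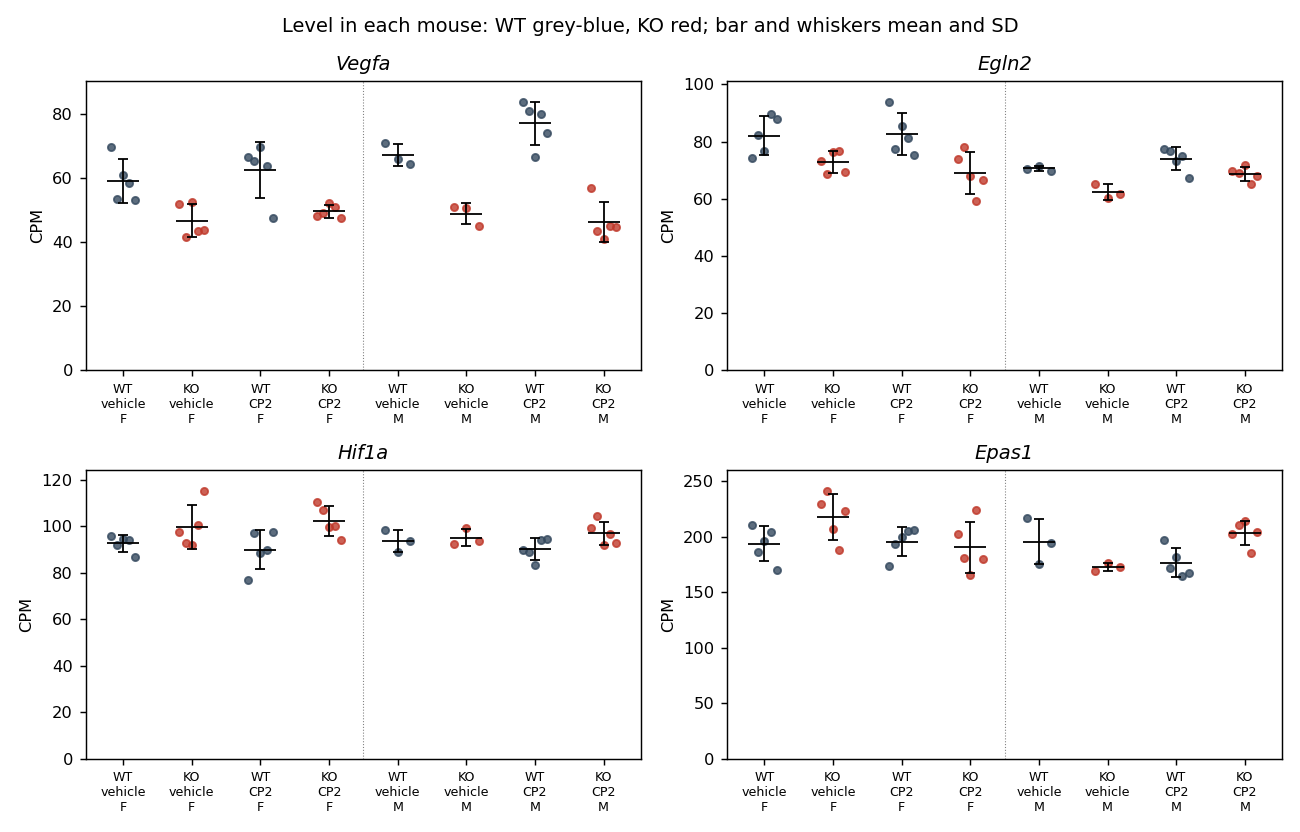
Level in CPM of Vegfa, Egln2, Hif1a and Epas1 in each sample of the 8 groups (points; WT grey-blue, KO red), with the mean as a bar and the SD as whiskers; F groups stand left of the dotted line and M groups right. The Vegfa panel shows KO samples between 40.9 and 56.9 CPM and WT samples between 47.4 and 83.5 CPM.

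The library share and markers of several cell types also differed between genotypes beside Vegfa. In F with vehicle, reads outside annotated genes made up 9.24% ± 2.56 (SD, n = 5) of KO libraries. WT libraries there had 5.99% ± 0.74 (SD, n = 5). With CP2 in M the order was the other way, with 7.33% ± 1.40 (SD, n = 5) in KO and 11.5% ± 1.64 (SD, n = 5) in WT. With that share as a covariate, the Vegfa difference was -0.37 with vehicle (adjusted p = 0.024) and -0.55 with CP2 (adjusted p = 1.32e-06) in the average of F and M. The share differed between groups, and its part in the Vegfa result was not tested apart from this fit. Of 5 blood genes, 4 were called lower in KO with vehicle (median log2 fold change -1.97), and 0 of 5 with CP2. Summed blood levels ran from 38.6 to 129 CPM in KO vehicle samples and from 85.1 to 647 CPM in WT vehicle samples, and the part of blood in the Vegfa result was not tested. In M with CP2, where the Vegfa difference was largest, 5 of 6 microglia markers (median log2 fold change 0.42) and 2 of 7 astrocyte markers (median 0.25) were called higher in KO. Summed microglia markers there ran from 351 to 462 CPM in KO and from 276 to 347 CPM in WT. Summed astrocyte markers ran from 5061 to 6136 CPM in KO and from 4164 to 4989 CPM in WT. In the average with CP2, 3 of 6 microglia markers and 1 of 7 astrocyte markers were called higher, and with vehicle 1 of 6 microglia markers was called lower and no astrocyte marker was called. Their part in the Vegfa result was not tested. Among the 8 endothelial markers, none was called with vehicle in the average of F and M (median log2 fold change 0.15). With CP2, 1 was called lower in the average, while the median was 0.16. In F with vehicle 1 was called higher (median 0.14), and in M with CP2 the median was 0.37 with 0 called.

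Egln2 (ENSMUSG00000058709), which encodes the prolyl hydroxylase PHD1, was the other member that was lower in KO. With vehicle, the KO F samples had 68.8, 69.4, 73.2, 76.5 and 76.5 CPM. The WT F samples had 74.2, 76.6, 82.3, 87.7 and 89.7 CPM. These groups overlapped, and the difference alone did not pass (log2 fold change -0.17, SE 0.07, adjusted p = 0.124). In M with vehicle, KO samples had 60.0, 61.6 and 65.2 CPM. WT samples had 69.8, 70.3 and 71.6 CPM, a separation without overlap in small groups (log2 fold change -0.18, SE 0.09, adjusted p = 0.39).

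Averaged over F and M with vehicle, Egln2 was lower by a log2 fold change of -0.18 (SE 0.05, adjusted p = 0.0432). That call is close to the threshold. It was lost with DESeq2's size factors in edgeR (adjusted p = 0.0706), with no filter on low counts (0.0655), with only these groups fitted (0.0564), with the library share as a covariate (0.237) and in 11 of the 16 fits that left out 1 sample, those without L246, L279, L283, L277, L295, L296, L319, L322, L285, L300 or L303.

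With CP2 the KO F samples had 59.0, 66.4, 68.0, 73.7 and 78.0 CPM of Egln2. The WT F samples had 75.3, 77.4, 81.3, 85.3 and 93.7 CPM. Only the highest KO sample reached the WT range, and Egln2 was called (log2 fold change -0.26, SE 0.07, adjusted p = 0.0318). This call was lost without L227, L233, L228, L257 or L272. In M with CP2, KO samples had 65.0, 67.9, 68.8, 69.8 and 71.8 CPM. WT samples had 67.2, 73.3, 75.0, 76.7 and 77.3 CPM, so that 4 of 5 WT samples lay above all KO samples, but the difference did not pass (log2 fold change -0.11, SE 0.07, adjusted p = 0.353).

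The average over F and M with CP2 was -0.18 (SE 0.05, adjusted p = 0.00832), and it was called in all 20 fits that left out 1 sample. Egln2 was lower in KO in all 4 groups of matched letter and treatment by its mean. By letter, WT with vehicle averaged 82.1 CPM in F (SD 6.77, n = 5) and 70.6 CPM in M (SD 0.902, n = 3). The F and M means were 82.6 and 73.9 CPM in WT with CP2 and 72.9 and 62.3 CPM in KO with vehicle. In KO with CP2 they were nearly the same, 69.0 and 68.7 CPM. The library share averaged 5.99% in F and 10.2% in M in WT with vehicle, and 7.54% and 7.33% in KO with CP2. In WT with CP2 it was 6.02% and 11.5%, and in KO with vehicle 9.24% and 12.1%. These comparisons by letter were not tested. Egln2 shares 11 exonic bases with Cyp2t4 on the opposite strand in GENCODE M21, and the strandedness of the counting is not given in the sources used here.

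Hif1a (ENSMUSG00000021109), the alpha subunit of HIF-1, was slightly higher in KO with CP2. The KO F samples had 93.9, 99.7, 100.1, 107 and 110.5 CPM. The WT F samples had 76.9, 88.6, 89.6, 97.0 and 97.6 CPM. Of the 5 KO samples, 4 were above every WT sample, while the log2 fold change of 0.18 (SE 0.06) had an adjusted p of 0.123. In M, KO samples had 92.1, 92.8, 96.9, 99.2 and 104 CPM. WT samples had 83.2, 88.9, 89.9, 94.1 and 94.7 CPM, which overlapped more (log2 fold change 0.11, SE 0.06, adjusted p = 0.328).

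The average of F and M with CP2 was 0.15 (SE 0.05, adjusted p = 0.0298), the 1 member called higher, against 5.54% of all genes called higher and 11.6% called in either direction. With Vegfa and Egln2, which were lower (against 6.07% of all genes called lower), 3 of 10 members were called in that comparison, and Epas1 was not (log2 fold change 0.08, SE 0.05, adjusted p = 0.355). The Hif1a call was lost with no filter on low counts (adjusted p = 0.0636), with the library share as a covariate (adjusted p = 0.0605), without both L266 and L291 (adjusted p = 0.103), and without each of L201, L216, L228, L291, L262 and L263. With vehicle, Hif1a had a log2 fold change of 0.06 (SE 0.05, adjusted p = 0.529). In GENCODE M21 an antisense gene, Gm15283, shares 330 exonic bases with Hif1a and its reads cannot be told apart without strand. A protein-coding gene on the same strand, Gm49321, shares 148 exonic bases with Hif1a, and strand would not separate reads from those bases.

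**Figure D3:**
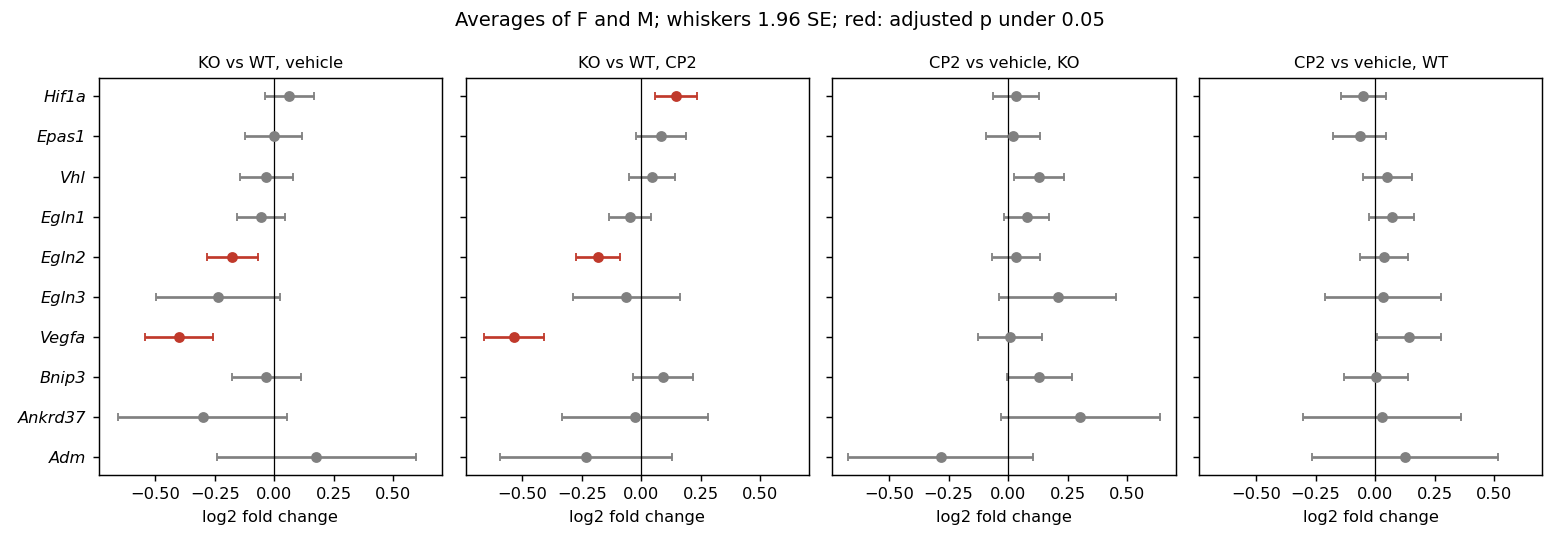
Log2 fold change of each member (points) with its 95% interval (whiskers), averaged over F and M, for KO against WT with vehicle and with CP2 and for CP2 against vehicle in KO and in WT; red marks an adjusted p under 0.05. Vegfa (-0.40 and -0.54) and Egln2 (-0.18 in both) lie left of 0 in the genotype panels, and no point is red in the CP2 panels.

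Epas1 (ENSMUSG00000024140), the alpha subunit of HIF-2, was the member whose response to CP2 in KO differed most between F and M. The KO F samples had 188, 207, 223, 230.1 and 241 CPM with vehicle. They had 166, 179.7, 181, 202 and 225 CPM with CP2, so the groups overlapped with CP2 on the lower side (log2 fold change -0.19, SE 0.08, adjusted p = 0.301). In M the order was the opposite. The KO M samples had 169, 173 and 177 CPM with vehicle. They had 185, 203, 204, 211 and 214 CPM with CP2, without overlap (log2 fold change 0.24, SE 0.09, adjusted p = 0.111). With the library share as a covariate that value was 0.35 (SE 0.11, adjusted p = 0.278).

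The difference between these CP2 effects was -0.43 on the log2 scale (SE 0.12) and did not pass the test in edgeR (adjusted p = 0.0583), where 0.691% of genes were called. DESeq2 gave it an adjusted p of 0.0259, and without L266 and L291 it was -0.41 with an adjusted p of 0.183 in edgeR. The call also appeared without L201, L281, L282 or L298. Deviations of Epas1 from the group means went with the summed endothelial markers (Pearson r = 0.63) and against the neuronal markers (r = -0.55) over 36 samples. These samples differ in depth, and how much of each brain region they hold is unknown. Endothelial markers summed to 212 to 229.8 CPM in KO vehicle M and 209 to 261 CPM in KO CP2 M. Pericyte markers (r = 0.54 with Epas1) summed to 171 to 197 CPM and 213 to 236 CPM there, without overlap. In KO F the pericyte sums overlapped, at 142 to 223 CPM with vehicle and 147 to 245 CPM with CP2. The part of these cells in the Epas1 values was not tested. In WT, Epas1 with CP2 against vehicle was 0.02 (SE 0.08) in F and -0.15 (SE 0.09) in M, neither called.

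Vhl (ENSMUSG00000033933), the substrate receptor of the ligase that removes HIF alpha subunits, had group means between 47.3 and 56.2 CPM. KO against WT gave log2 fold changes of -0.03 (SE 0.06, adjusted p = 0.781) with vehicle and 0.04 (SE 0.05, adjusted p = 0.637) with CP2. Its level in KO M was 46.3, 47.0 and 48.6 CPM with vehicle. With CP2 it was 50.05, 50.7, 54.0, 54.3 and 56.6 CPM, with no overlap (log2 fold change 0.17, SE 0.08, adjusted p = 0.239). Deviations of Vhl from the group means ran against the share of reads outside genes (r = -0.57, n = 36), which averaged 12.1% in the 3 vehicle libraries (SD 0.885) and 7.33% in the 5 CP2 libraries (SD 1.40). With that share as a covariate the Vhl value was -0.01 (SE 0.09, adjusted p = 0.985).

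Egln1 (ENSMUSG00000031987), which encodes PHD2, the main hydroxylase of HIF in most tissues, passed no test. In F with CP2 its KO samples had 76.5, 83.6, 84.0, 85.1 and 89.0 CPM. The WT samples had 90.2, 91.1, 91.9, 92.8 and 97.1 CPM. All KO samples were below all WT samples, the 1 member of 10 without overlap in this comparison against 3.02% of all genes, but the adjusted p was 0.226 (log2 fold change -0.15, SE 0.06). In M with CP2 the value had the other sign (0.05, SE 0.06). Egln3 (ENSMUSG00000035105), PHD3, itself a HIF target, had group means of 7.99 to 10.6 CPM and its value in the average with vehicle was -0.24 (SE 0.13, adjusted p = 0.307), with an interval from -0.50 to 0.03.

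Of the other 3 targets among the members, none was called between genotypes. Bnip3 (ENSMUSG00000078566), which encodes a mitochondrial outer membrane protein of mitophagy, had group means between 82.6 and 97.2 CPM, and its KO to WT log2 fold change was -0.03 (SE 0.07, adjusted p = 0.844) with vehicle. With CP2 it was 0.09 (SE 0.06, adjusted p = 0.411). The intervals, -0.18 to 0.11 and -0.03 to 0.22, hold no difference as large as that of Vegfa. An antisense gene, Gm45507, shares 504 exonic bases with Bnip3, and the counting may have placed reads of both together or discarded them.

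Ankrd37 (ENSMUSG00000050914), an ankyrin repeat gene induced by HIF-1, was at 2.42 to 3.35 CPM by group mean. Its KO to WT value with vehicle was -0.30 (SE 0.18, adjusted p = 0.343), with an interval of -0.66 to 0.05, an interval that includes the value of Vegfa. With CP2 the Ankrd37 value was -0.03 (SE 0.16, adjusted p = 0.945). That interval, -0.33 to 0.28, does not include the value of Vegfa with CP2 (-0.54). Adm (ENSMUSG00000030790), the vasodilator peptide adrenomedullin, was at 1.49 to 2.02 CPM by group mean with counts of at least 54. Its value was 0.18 (SE 0.21, adjusted p = 0.687) with vehicle and -0.23 (SE 0.18, adjusted p = 0.484) with CP2. Both genes varied most within groups, with an SD of log2 CPM of 0.353 for Ankrd37 and 0.389 for Adm against 0.0914 for Egln1. Ankrd37 shares 349 exonic bases with Lrp2bp on the opposite strand.

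**Figure D4:**
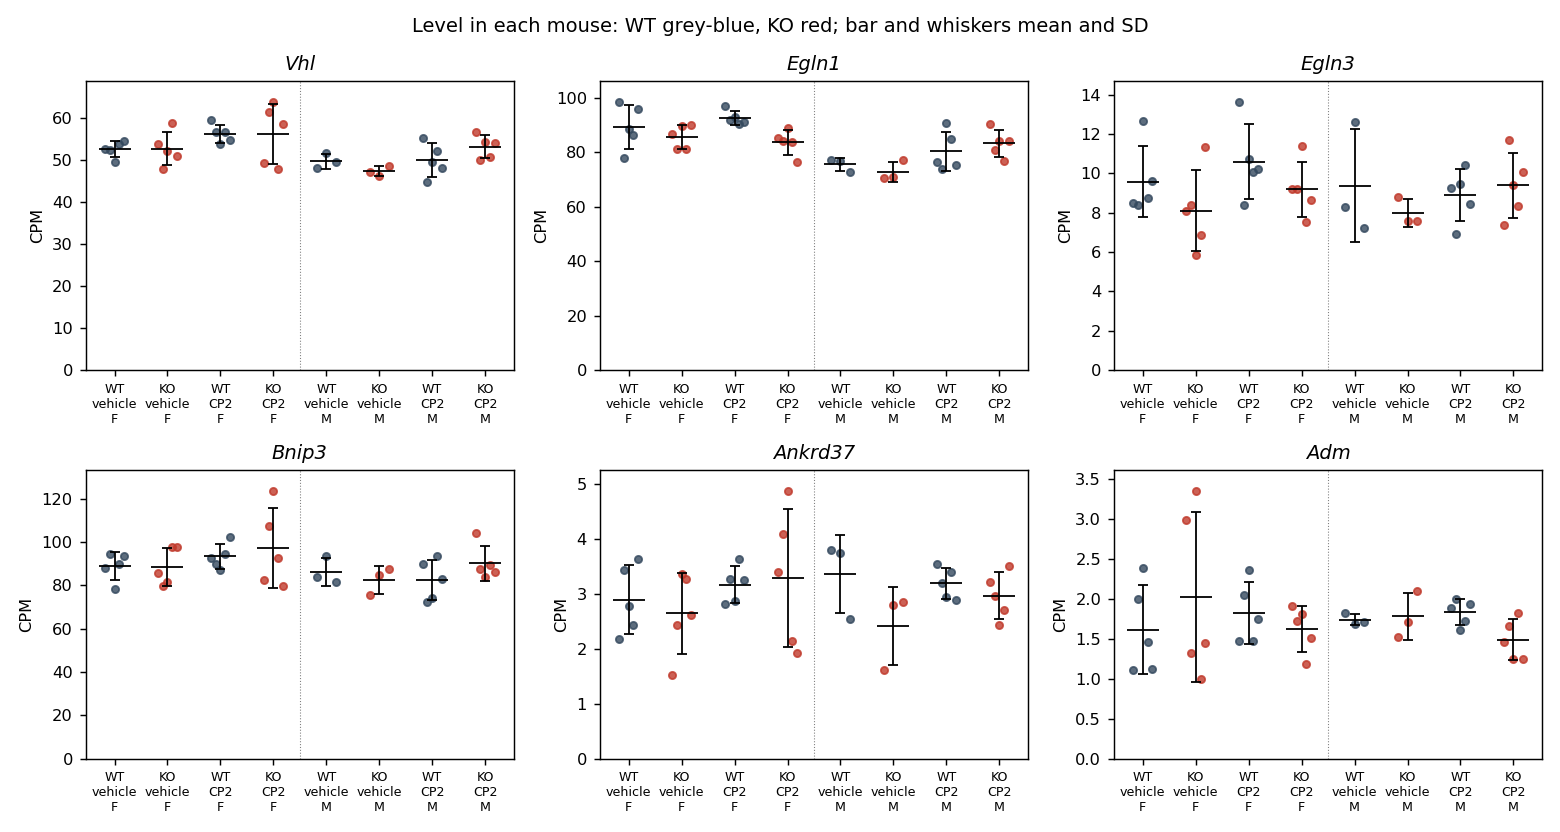
Level in CPM of Vhl, Egln1, Egln3, Bnip3, Ankrd37 and Adm in each sample of the 8 groups (points; WT grey-blue, KO red), with the mean as a bar and the SD as whiskers. Samples of both genotypes overlap in most panels, and the Egln1 panel shows the separation in F with CP2 (76.5 to 89.0 CPM in KO, 90.2 to 97.1 CPM in WT).

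CP2 against vehicle was tested in each genotype. In KO the number of members called was 0 in F, in M and in the average, against 0.0859%, 5.1% and 3.91% of all genes, and the number at an unadjusted p under 0.05 was 1, 3 and 1, where 11%, 19.4% and 18.1% of all genes were at that level. DESeq2 also called 0 members in these 3 comparisons. In M, 2 members, Epas1 and Vhl, did not overlap between KO CP2 and KO vehicle, against 15.3% of all genes.

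In WT no member and no gene at all was called (0% in F, in M and in the average), with 0, 0 and 1 members at an unadjusted p under 0.05 (2.65%, 3.04% and 4.03% of all genes), and DESeq2 called 0 members. The member at that level was Vegfa, at 0.14 (SE 0.07, adjusted p = 1) in the average. Its intervals for the CP2 effect were 0.01 to 0.28 in WT and -0.13 to 0.14 in KO. The test of genotype by CP2 gave -0.13 for Vegfa (SE 0.10, adjusted p = 0.55) and called 0 members, against 0.715% of all genes, with 0 at an unadjusted p under 0.05 (14.6% of all genes) and 0 by DESeq2. These tests share samples with the genotype comparisons above and give no independent check of them.

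Within groups, the members did not vary as 1 block. Over 36 samples, deviations of log2 CPM from the group means correlated most between Vhl and Bnip3 (Pearson r = 0.61) and between Bnip3 and Ankrd37 (r = 0.56), and most negatively between Epas1 and Vhl (r = -0.52). Vhl and Bnip3 both ran against the share of reads outside genes (r = -0.57 and -0.58), and Vegfa and Egln2 hardly did (r = -0.14 and -0.10). The genes with deviations most like those of Vegfa among 15419 genes were Arid5a (r = 0.69), Zfp959 (0.65) and Pex5 (0.64). For Egln2 they were Slc25a29 (0.80), Ubtf (0.79) and Sap30l (0.74), and for Hif1a they were Bmpr1a (0.79), Arhgap5 (0.75) and Chpt1 (0.74). These values describe samples that differ in depth, and how much of each brain region a sample holds is unknown.

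The other genes of the pathway moved in both directions. Of 83 genes in 6 lists, 82 were tested, Epo being the exception. In KO against WT with vehicle, averaged over F and M, 6 were called higher and 9 lower, with a median log2 fold change of -0.05 against 0.02 for all genes. With CP2, 8 were called higher and 12 lower, with a median of 0.02 against 0.01. Of all genes tested, 6.67% and 11.6% were called in these comparisons.

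P4ha1, a collagen prolyl hydroxylase subunit and a HIF target, was lower in KO in both treatments, like Vegfa. Its group means were 26.4 to 28.9 CPM in KO and 39.0 to 51.8 CPM in WT, with log2 fold changes of -0.70 (SE 0.14, adjusted p = 0.00241) with vehicle and -0.85 (SE 0.12, adjusted p = 2.24e-05) with CP2. Among the glycolytic and glucose genes with vehicle, 1 of 20 was called higher, the neuronal glucose transporter Slc2a3 (0.23), and 3 were lower: Ldha, lactate dehydrogenase A (-0.29), Pfkl, liver-type phosphofructokinase (-0.24), and Pgk1, phosphoglycerate kinase (-0.17, adjusted p = 0.0499). Pgk1 was called in 1 of 5 alternatives, down to -0.07, and Ldha reached -0.12 with an adjusted p of 0.539 in the 1 alternative of 5 that ended its call. With CP2, Pdk1, the kinase that restrains pyruvate dehydrogenase, was higher (0.24), and the phosphofructokinase regulator Pfkfb3 (-0.38), Ldha (-0.22) and Pfkp (-0.22) were lower, the Ldha call holding in 3 of 6 alternatives.

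Of the 7 subunits and partners, Arnt2, the beta subunit prominent in neurons, was higher in KO with vehicle (0.23, adjusted p = 0.00841) and with CP2 (0.19, adjusted p = 0.00735), and Arnt was lower with CP2 (-0.23, adjusted p = 0.0379), a call that held in 3 of 6 alternatives. Of the 9 sensing and degradation genes, Hif1an, the asparaginyl hydroxylase that blocks HIF coactivator binding, was lower in both (-0.23 and -0.31, adjusted p = 0.0478 and 0.00103), the vehicle call being lost in 13 of 16 fits that left out 1 sample, and Siah1a, a ubiquitin ligase for the hydroxylases, was higher in both (0.30 and 0.23). Of the 13 mitochondrial and metabolic targets, the adenylate kinase Ak4 was lower in both (-0.39 and -0.29). The Ak4 call held in 3 of 5 alternatives with vehicle and in 5 of 6 with CP2. Hmox1, heme oxygenase, was higher with CP2 (0.37), a call that held in 3 of 6 alternatives. Of the 21 other targets tested with vehicle, 3 were lower (P4ha1, Ndrg1 at -0.44 and Plod1 at -0.43) and 3 higher (Igfbp3 at 0.55, Kdm3a at 0.36 and Tfrc at 0.32). The Tfrc call held in 3 of 5 alternatives. With CP2 there were 6 lower, among them P4ha2 (-0.45) and Bhlhe40 (-0.42), and 2 higher, among them Zfp395 (0.42).

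**Figure D5:**
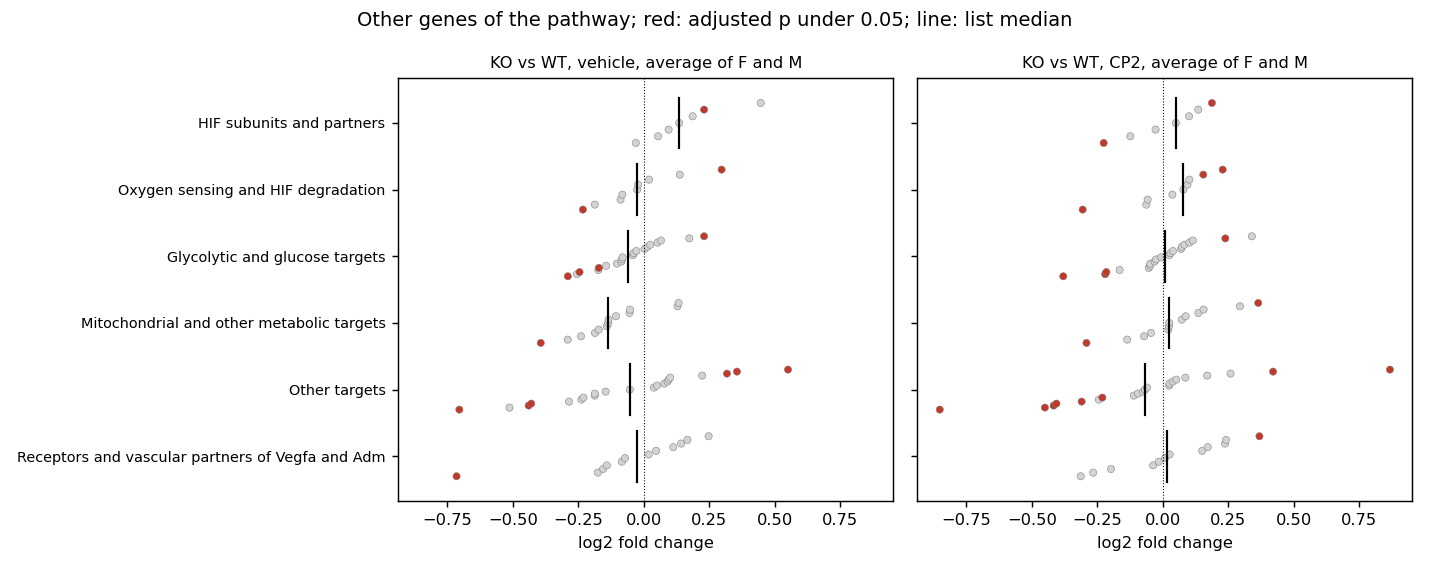
Log2 fold change of KO against WT, averaged over F and M, for the 82 other pathway genes in 6 lists (points; red for an adjusted p under 0.05; black line for the list's median), with vehicle on the left and CP2 on the right. Red points lie on both sides of 0 in both panels, 15 with vehicle and 20 with CP2.

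On the receiving side of Vegfa and Adm, 12 receptors and vascular partners were tested. With vehicle 1 was called, Ramp3, an accessory subunit of the adrenomedullin receptor, which was lower in KO (-0.71, SE 0.21, adjusted p = 0.0399), a call that held in 2 of 5 alternatives. With CP2 1 was called, Angpt1, a ligand of the endothelial receptor TEK, which was higher (0.37, SE 0.10, adjusted p = 0.00782). That average joins 0.73 in M (SE 0.13, adjusted p = 0.000346) and 0.01 in F (SE 0.13, adjusted p = 0.984). In M with CP2 alone, Calcrl, which encodes the receptor that binds adrenomedullin, was also higher in KO (0.42, SE 0.14, adjusted p = 0.045). The Calcrl call held in 3 of 6 alternatives. The VEGF-A receptors did not pass: Kdr had group means of 13.3 to 18.5 CPM and Flt1 of 53.0 to 69.6 CPM.

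The list counts moved with the library share. With it as a covariate, 4 of the 82 genes were called with vehicle (15 without it) and 17 with CP2 (20 without it). Calls over all genes then made up 1.14% with vehicle (6.67% without it) and 11.5% with CP2 (11.6% without it). P4ha1 then had a log2 fold change of -0.59 with vehicle (adjusted p = 0.0619) and remained called with CP2. Leaving out L322, L285 or L300 brought the vehicle count to 6, 8 or 7. For CP2 against vehicle, 10 of the 82 genes were called in KO M (7 higher, 3 lower), 0 in KO F and 0 in WT, where 5.1%, 0.0859% and 0% of all genes were called. In the KO average of F and M, 3 were called higher and 1 lower, where 3.91% of all genes were called. The KO M count was 0 with that covariate, as it was for all genes, 1 without both L266 and L291, and 2 to 5 without any one of L266, L291, L292, L299, L310, L319 or L322.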

How the data were processed

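PolyA-enriched RNA of 36 brain samples (Trizol-based extraction, Illumina TruSeq, per the labels' protocols) was aligned and counted by the authors. The deposited table holds raw counts of reads per gene, and per the submitters' processing notes STAR, HTSeq and the GRCm39 build were used. The versions, annotation release and strandedness are not given in the sources used here.

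The 5 summary rows were left out. Symbols came from GENCODE M21 (52073 of 56980 identifiers, 97.2% of counts), and exon lengths and promoter windows are on GRCm38, so they were matched by gene and not by position. Counts were tested with edgeR 4.0.16 in R 4.3.3 (TMM, filterByExpr, robust quasi-likelihood fit of 8 groups, 25601 genes, 16 contrasts, Benjamini-Hochberg adjustment per contrast, threshold 0.05). Effects of F and M were averaged with equal weight. SE was derived from the log2 fold change and the F statistic, and intervals are 95%. CPM uses TMM library sizes. Every adjusted p is edgeR's unless DESeq2 1.42.0 is named. The fit was tested on simulated data.

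Alternatives were DESeq2, its size factors in edgeR, no filter on low counts, a covariate for reads outside genes, only the groups compared, and leaving out each sample. Leaving out L266 and L291 together, and the alternatives for pathway genes, were chosen after seeing the data. Over 66 pairs of replicates, the lowest mean chi-square per gene was 13.5, and no library was a duplicate. The members, lists and the rule for named genes (called pathway genes, at most the 3 largest in each direction per list) were chosen with earlier results of these data known. A called pathway gene that this rule selects is not reported here.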

Additional observations from a re-analysis of the deposited data

Results flagged for a closer look

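Single samples stood far from the rest of their group in 4 of 60 member and group combinations tested by Dixon's ratio (the gap to the nearest sample divided by the range). Chance flags about 1 in 20. Vegfa was 47.4 CPM in L311 of WT CP2 F, below the other samples of the group, which began at 63.6 CPM. Vegfa was 56.9 CPM in L266 of KO CP2 M, above the others at up to 45.1 CPM. Bnip3 was also highest in L266, at 104 CPM against up to 89.3 CPM. Egln3 was 12.7 CPM in L278 of WT vehicle F, where the others lay between 8.38 and 9.59 CPM. Both Vegfa samples lay on the side of the other genotype.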

How the results depend on the processing

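The number of members called moved with the settings. In KO against WT with vehicle it was 0 in F (1 as reported) with the library share as a covariate or only the groups compared, and 1 in M (0 as reported) with no filter, with DESeq2 or with only the groups compared, in each case Vegfa. In the average with vehicle it was 1 (2 as reported), Vegfa, with DESeq2's size factors, no filter, the covariate or only the groups compared. With CP2 in F it was 1 (2 as reported) with those size factors (Egln2) or no filter (Vegfa), and 0 with the covariate or only the groups compared. With CP2 in M it was 2 (1 as reported) with only the groups compared, Epas1 being added. For the difference between F and M in the CP2 effect in KO it was 1 (0 as reported) with DESeq2, Epas1. The causes were not tested. Leaving out 1 sample gave 0 to 1 in F and 1 to 2 in the average with vehicle, 0 to 2 in F and 1 to 2 in M with CP2, and 0 to 1 for that difference. Vegfa was called in the average of F and M under every alternative run, from -0.42 to -0.36 with vehicle and from -0.58 to -0.52 with CP2 when 1 sample was left out. No direction of a called value reversed. No paired analysis was possible because no replicate number is shared between groups. Adm and Ankrd37 had as few as 54 and 78 counts in a sample, and the part of depth in their spread was not tested.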
